A study of Mus musculus with 77 samples.

Results

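The genes described here are 49 genes named for 3 families of signalling proteins, 19 Wnt, 20 Fgf and 10 Bmp genes, taken by their names from the 34328 protein-coding and long non-coding RNA genes of the mouse gene table (GRCm38.p6, the assembly also called mm10). No measured value was a criterion of the choice, but earlier results of these data were known when it was made. For each gene the peaks of 3 histone marks were read over its window, the gene body and 2000 bp on either side. The marks had been profiled by CUT&RUN, where a nuclease guided by an antibody releases the DNA of marked nucleosomes, in CD23+ B cells from the spleen of female mice; CD23 is a surface marker of follicular B cells.

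All groups are B cells of mice that were either wild type (WT) or Xist fl/fl, that is, with floxed alleles of Xist, whose non-coding RNA covers the inactive X chromosome. In the mb1-cre system both genotypes carried mb1-cre, a Cre recombinase expressed from the B-lineage gene mb1 in the animal, and were written as WT (mb1-cre+) and Xist fl/fl with mb1-cre+. In the TAT-Cre system the cells of both genotypes were given 80 µg of TAT-Cre, a cell-permeant Cre protein, for 45 min before culture. Unstimulated cells gave the 0 h libraries, and culture with 1 µM CpG, which activates B cells through Toll-like receptor 9, gave those of 24 h. TAT-Cre was given only before the 24 h culture, so TAT-Cre cells at 0 h had met no Cre, and in that system time and enzyme cannot be told apart. The 77 libraries form 24 groups of 3, except H3K27me3 in the mb1-cre system, where WT has 4 libraries at either time and Xist fl/fl has 5 at 0 h and 4 at 24 h. The titles label the replicates as biological, but the sources used here give no strain, age or separate animals for them. A p-value therefore measures spread between libraries, and whether that is spread between animals is not stated.

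H3K27me3 and H2AK119Ub are the marks placed by the Polycomb repressive complexes, and H3K27ac marks active promoters and enhancers. Wnt proteins are secreted lipid-modified ligands of Frizzled receptors and act through β-catenin or through planar polarity and calcium pathways. Fgf proteins bind receptor tyrosine kinases, mostly with heparan sulfate, while Fgf15, Fgf21 and Fgf23 act as hormones and Fgf11, Fgf12 and Fgf14 stay inside the cell. Bmp proteins are ligands of the TGF-β superfamily that signal through receptor kinases and Smads, except Bmp1, which is a secreted metalloprotease. Genes for such developmental ligands are textbook targets of Polycomb in cells that do not use them.

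The promoters of 6 members are shown because they span the range of Polycomb marking described below, from Wnt1, under both Polycomb marks in every library, to Fgf10, under neither in any. Each is the 150 bases just outside the start of the gene body, 5′ to 3′ on the gene's strand, from the RefSeq promoter table (GRCm38.p6), with CG dinucleotides in capitals. Wnt1 and Fgf21 have the highest and lowest H3K27me3 presence among the genes given by library, and the other 4 were chosen after their values were seen.
Wnt1 (chr15:98789707-98789856, plus strand): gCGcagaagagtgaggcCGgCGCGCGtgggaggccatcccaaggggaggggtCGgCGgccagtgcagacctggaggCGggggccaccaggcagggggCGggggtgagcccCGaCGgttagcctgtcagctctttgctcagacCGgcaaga
Wnt10b (chr15:98778207-98778356, minus strand): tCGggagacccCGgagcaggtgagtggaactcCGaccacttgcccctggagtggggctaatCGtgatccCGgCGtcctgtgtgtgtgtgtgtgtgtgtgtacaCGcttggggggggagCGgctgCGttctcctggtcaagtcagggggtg
Wnt7a (chr6:91411354-91411503, minus strand): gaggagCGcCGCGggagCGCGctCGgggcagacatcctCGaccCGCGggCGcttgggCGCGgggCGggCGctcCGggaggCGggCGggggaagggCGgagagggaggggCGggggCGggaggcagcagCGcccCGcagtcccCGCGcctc
Fgf21 (chr7:45615491-45615640, minus strand): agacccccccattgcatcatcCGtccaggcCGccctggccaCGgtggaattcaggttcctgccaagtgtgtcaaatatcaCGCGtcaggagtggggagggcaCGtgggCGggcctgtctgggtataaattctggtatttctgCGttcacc
Fgf22 (chr10:79754901-79755050, plus strand): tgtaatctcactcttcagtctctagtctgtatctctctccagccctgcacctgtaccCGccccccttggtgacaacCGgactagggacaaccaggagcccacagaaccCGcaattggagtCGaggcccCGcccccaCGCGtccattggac
Fgf10 (chr13:118714549-118714698, plus strand): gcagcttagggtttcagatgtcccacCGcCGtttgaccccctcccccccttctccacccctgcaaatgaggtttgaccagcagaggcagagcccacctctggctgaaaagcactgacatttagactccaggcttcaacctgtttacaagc
The Wnt7a stretch held 24 CG dinucleotides, the Wnt1 stretch 12, Wnt10b 9, Fgf21 8, Fgf22 7 and Fgf10 2.

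H3K27me3 lists held 1955 to 19074 peaks, H2AK119Ub lists 2004 to 40688 and H3K27ac lists 1336 to 10393. The sources used here give no read depth, and list length is given in its place. The 3, 4 and 3 lists of fewer than 3000 peaks were all from 0 h. The cells carried H3K27ac peaks at 10 of 10 B cell marker genes in every library, while the median library had such peaks at 0% of 10 T cell, 10 myeloid and 6 NK cell markers (highest 20.0%, 20.0% and 16.7%). At 24 h the targeted gene Xist had an H2AK119Ub peak in 3 of 3 mb1-cre WT, 0 of 3 mb1-cre Xist fl/fl, 3 of 3 TAT-Cre WT and 3 of 3 TAT-Cre Xist fl/fl libraries. At 0 h it had one in 2 of 3 libraries of each of these 4 groups, mb1-cre Xist fl/fl included. Peak lists do not count deleted alleles, so this is no check of the deletion.

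Most Wnt, Fgf and Bmp genes had an H3K27me3 peak in their window in these B cells, and almost none an H3K27ac peak. A peak counts here from 1 bp of overlap. Averaged over libraries, the median member had 37.2% of its window under H3K27me3 peaks and 13.8% under H2AK119Ub peaks. The median H3K27me3 library had a peak at 75.5% of the 49 members (53.1% to 87.8%), against 24.3% of the 20665 autosomal protein-coding genes (9.24% to 35.4%). The members' share was the higher in 29 of 29 libraries, with a median ratio of 3.11. For H2AK119Ub the median was 64.3% (22.4% to 81.6%) against 46.0% (9.73% to 57.3%), higher in 24 of 24 libraries, with a median ratio of 1.44. For H3K27ac it was 2.04% (0% to 6.12%) against 19.4% (5.07% to 35.5%), higher in 0 of 24 libraries. The members are somewhat longer than other genes, with a median body of 22850 bp against 17491 bp, and a longer window meets more peaks by its length. These shares are a description of gene families known as Polycomb targets, with no test.

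**Figure D1:**
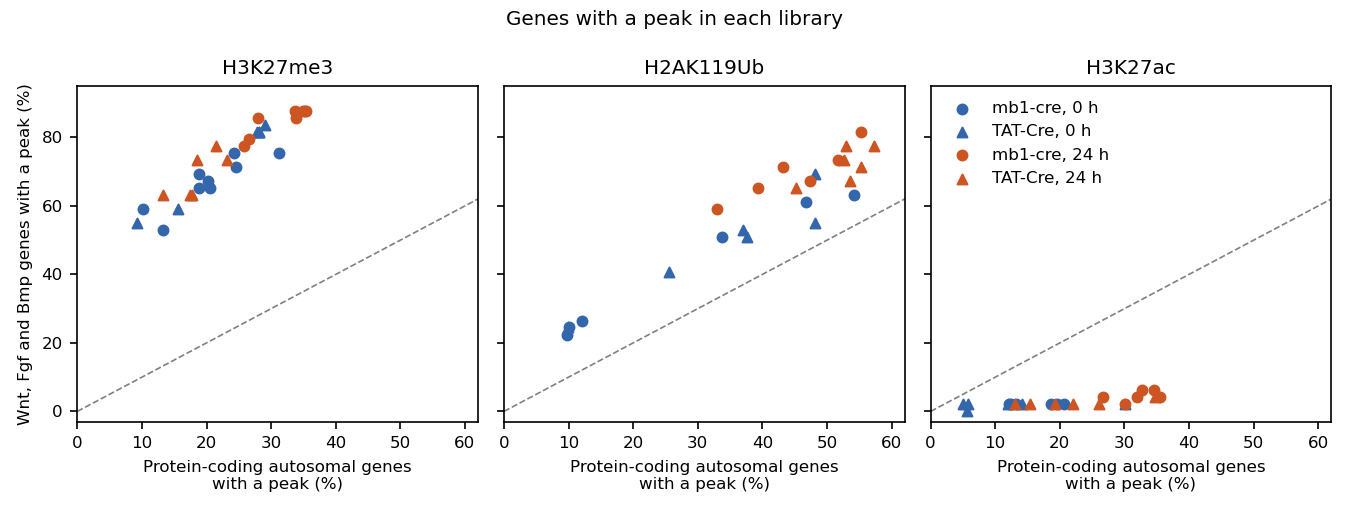
Percent of the 49 members with a peak (vertical axis) against percent of autosomal protein-coding genes with a peak (horizontal axis), 1 point per library, by system and time; the dashed line marks equal shares. All 29 H3K27me3 and all 24 H2AK119Ub libraries lie above the line, and all 24 H3K27ac libraries lie below it.

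The families differed in how often they were marked. The median H3K27me3 library had a peak at 94.7% of the Wnt genes, 65.0% of the Fgf genes and 70.0% of the Bmp genes, and the median H2AK119Ub library at 76.3%, 60.0% and 40.0%. A group of 21 members (42.9%) had H3K27me3 in all 29 libraries, against 6.05% of protein-coding genes. They were 12 Wnt genes (Wnt1, Wnt2b, Wnt3, Wnt3a, Wnt5b, Wnt6, Wnt8b, Wnt9b, Wnt10a, Wnt10b, Wnt11 and Wnt16), 7 Fgf genes (Fgf2, Fgf8, Fgf9, Fgf15, Fgf17, Fgf20 and Fgf23) and 2 Bmp genes (Bmp6 and Bmp7). Only Wnt2, Fgf10, Fgf14 and Fgf22 had none in any of the 29, which is 8.16% of members against 56.5% of protein-coding genes. The other 24 members had it in some libraries. Wnt9a (27), Wnt8a (26), Wnt7b (25), Wnt7a (22), Wnt5a (19) and Wnt4 (18) were in most of the 29. So were Fgf11 and Fgf18 (28 each), Fgf5 (27), Fgf4 (25) and Fgf21 (17), while Fgf6 was in 14, Fgf3 in 9, Fgf1 and Fgf12 in 8 and Fgf7 in 1. Bmp1, Bmp4 and Bmp8b were in 28, Bmp2 in 20 and Bmp8a in 17, but Bmp5 in 8, Bmp10 in 6 and Bmp3 in 2. H2AK119Ub was in all 24 libraries at 9 members (18.4% against 5.98%), namely Wnt1, Wnt6, Wnt10a, Wnt10b, Wnt11, Wnt16, Fgf9, Fgf11 and Fgf15, and in none at Wnt2, Wnt5a, Fgf10 and Bmp3 (8.16% against 23.2%). Bmp4 and Fgf20 had much H3K27me3 and little H2AK119Ub, with peaks in 28 and 29 of 29 but 7 and 7 of 24 libraries. For Bmp8a and Fgf1 the order was the other way, with 17 and 8 of 29 but 20 and 19 of 24. Wnt2, a ligand of lung and vessel development, and Fgf10, a mesenchymal ligand of limb and lung buds, thus had neither mark.

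**Figure D2:**
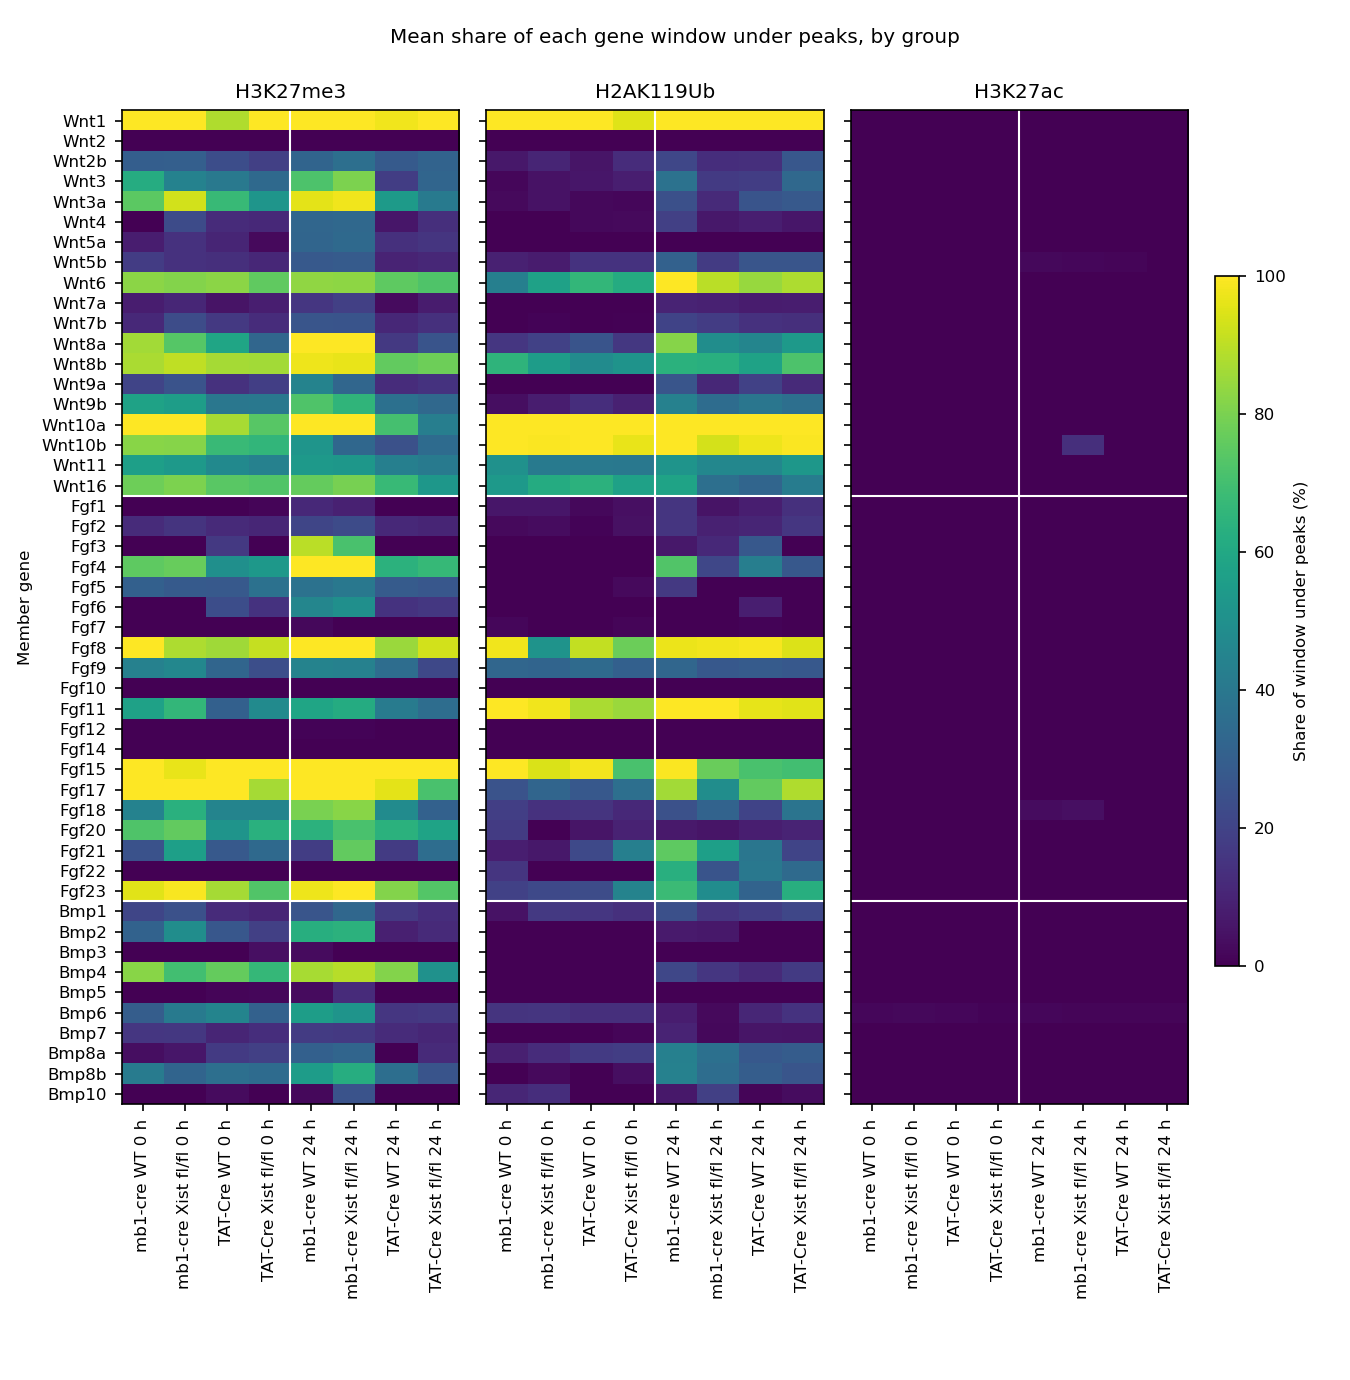
Mean share of each member's window under peaks, in percent, for the 8 groups of each mark; rows are genes ordered by family, columns are groups, and the vertical line parts 0 h from 24 h. Wnt1 lies between 88.1% and 100% for both Polycomb marks in all groups, Wnt2 and Fgf10 are at 0, and the H3K27ac panel is almost empty.

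Among the Wnt genes the mark covered whole genes in some and only a small part in others. Wnt1, the ligand of the midbrain-hindbrain boundary (gene 22408, chr15:98789857-98793830), had 98.5% ± 6.71 (SD, n = 29) of its window under H3K27me3. Its lowest library was at 64.2% and its median at 100% at 0 h, and at 24 h the lowest was 93.4%. Wnt8b had 88.2% and Wnt10a 87.0% on average. Wnt7a, a ligand of limb patterning, and Wnt5a, the main ligand of the β-catenin-independent pathway, had 10.2% and 17.2%. Wnt3, Wnt3a and Wnt9b lay between, at 50.2%, 75.3% and 52.0%. The covered share depends on the length of the gene as well as on peak width. Where there was a peak, the widest had a median of 35290 bp at Wnt1 (29 libraries) and 14197 bp at Wnt7a (22 libraries).

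Fgf genes were covered to the extremes. Fgf15, the gut hormone that restrains bile acid synthesis (chr7:144896532-144900953), had 99.4% of its window under H3K27me3, Fgf17 95.2%, Fgf8, an organiser signal of limb and brain, 93.2%, and Fgf23, the bone hormone of phosphate balance, 90.0%. Fgf12 and Fgf14, whose bodies run over 595461 bp and 703246 bp, had 0.312% and 0%. The compact Fgf22 (2745 bp) also had 0%, so the unmarked members include both long and short genes. Of the Bmp genes, Bmp4, a ventralising ligand of the early embryo, had 76.1%, Bmp8b 41.3% and Bmp6 37.3%. Bmp3, which opposes other Bmp ligands in bone, had 0.807%.

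Neighbouring Wnt genes shared single H3K27me3 peaks. One peak reached over both Wnt1 and Wnt10b in 26 of 29 libraries (median width 35672 bp) and over both Wnt6 and Wnt10a in 26 of 29 (55059 bp). It did so for Wnt3a and Wnt9a in 24 of 29 (39590 bp) and for Wnt3 and Wnt9b, whose bodies overlap, in 29 of 29 (14388 bp). The members of such a pair are therefore not separate observations. H2AK119Ub peaks joined Wnt6 and Wnt10a in 23 of 24 libraries and Wnt1 and Wnt10b in 17 of 24, but Wnt3a and Wnt9a in 1 of 24. The Fgf3, Fgf4 and Fgf15 cluster on chromosome 7 behaved in another way. Fgf15 had H3K27me3 in all 29 libraries, Fgf4 in 25 and Fgf3 in 9, and only 1 library had a peak that joined 2 of them (Fgf4 and Fgf15, 57080 bp).

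The Polycomb marks were denser at the members' start sites than 10000 bp away. For the 36 members with a promoter in the RefSeq table, 56.7% of gene-library pairs had H3K27me3 at the start site, against 14.3% for 16457 protein-coding genes. At 10000 bp downstream the members were at 28.4% and the other genes at 7.04%, and at 10000 bp upstream at 38.1% and 11.1%. H2AK119Ub was at 40.4% against 26.4% at the start and at 17.7% against 11.8% at 10000 bp upstream. H3K27ac was at 0.116% against 14.9% at the start. The members' promoters held a median of 20.5 CG dinucleotides in 300 bases, against 14.0. Their ratio of observed to expected CG had a median of 0.74, against 0.60 for protein-coding genes. It was 0.75 in the 15 with H3K27me3 in every library, 0.73 in the 17 with it in some and 0.52 in the 4 with it in none. A ratio of at least 0.6 was reached by 11 of 15, 10 of 17 and 2 of 4 (73.3%, 58.8% and 50.0%). For protein-coding genes it was 49.8%. Wnt2, with 27 CG dinucleotides and a ratio of 0.84, was 1 of the 2.

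**Figure D3:**
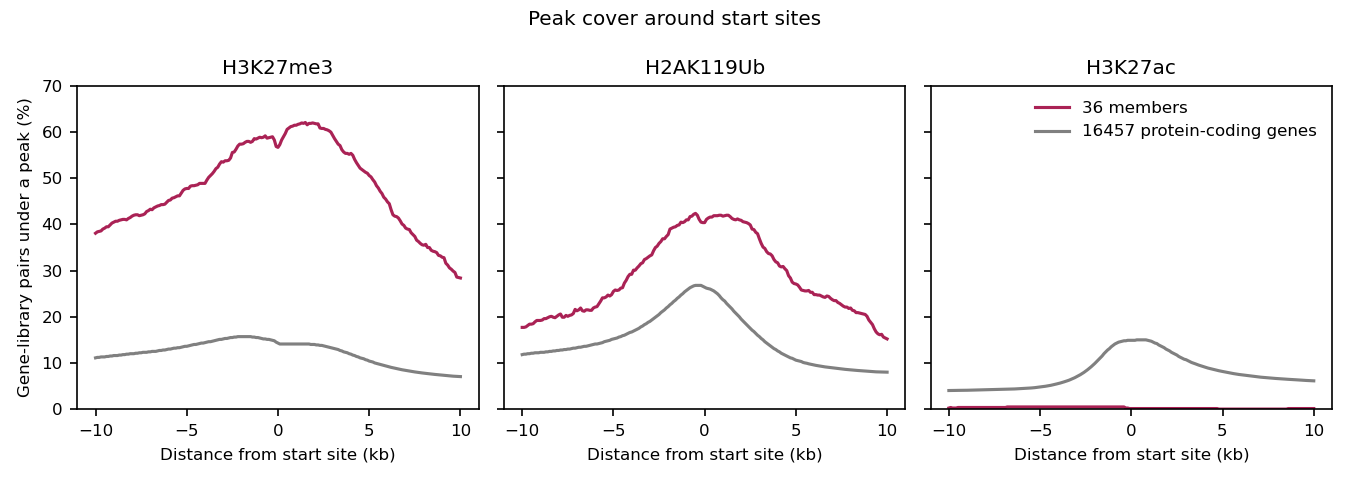
Percent of gene-library pairs under a peak (vertical axis) by distance from the start site in kb, positive downstream (horizontal axis), for 36 members and 16457 autosomal protein-coding genes. The members' curves lie above the others for H3K27me3 and H2AK119Ub over the whole range and near 0 for H3K27ac.

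H3K27ac peaks touched 4 members, and for 2 of them the peak lay over another gene. Bmp6, a ligand that in the liver drives hepcidin, had an H3K27ac peak in 23 of 24 libraries. It covered 2.45% of the Bmp6 window at most, at the 3′ end of the gene, over the end of Txndc5 (chr13:38500266-38528824), an endoplasmic reticulum disulfide isomerase gene whose body meets that of Bmp6 there; in replicate 2 of WT mb1-cre cells at 0 h it ran over chr13:38498934-38506519. Wnt5b had a peak in 3 libraries, each over Fbxl14 (chr6:119479668-119483886), a gene inside the Wnt5b body. The Fgf18 peaks, in 4 of 6 mb1-cre libraries at 24 h and in no other, lay at the upstream end of Fgf18, a ligand of bone and lung growth (chr11:33116970-33147400, minus strand). In Xist fl/fl replicate 2 the peak covered the start (chr11:33147242-33156928), and the other 3 began just upstream of it, as in replicate 1 (chr11:33147513-33157326). Wnt10b had 1 peak, in replicate 3 of Xist fl/fl mb1-cre cells at 24 h (22.5 ppm of autosomal signal).

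The genotype comparison asks whether the marks of these autosomal genes differed where Cre met floxed Xist. It set Xist fl/fl against WT within the mb1-cre system at 0 h and at 24 h and within the TAT-Cre system at 24 h, by an exact test of peak presence with Benjamini-Hochberg (BH) adjustment over all genes tested and a threshold of 0.05. No member was called for any mark. Of 12 members that could be tested for H3K27me3, 0 were called higher and 0 lower, and 0 had an unadjusted p under 0.05. Among 7789 genes, 0.0% were called in each direction and 1.66% (higher) and 0.257% (lower) had an unadjusted p under 0.05. By direction alone, 10 of the 12 members leaned higher in Xist fl/fl, 0 lower and 2 neither. The share of all genes that leaned higher was not counted. For H2AK119Ub 0 of 26 members were called (0.0% of 16824 genes each way; unadjusted 0.00594% higher and 1.05% lower). For H3K27ac 0 of 2 were called (0.0% of 6420 genes each way; unadjusted 0.0% higher and 1.09% lower). The members that were always or never marked had no variation in presence to test.

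Fgf21, the liver hormone of fasting, showed the smallest p for H3K27me3, its mark being present in 4 of 11 WT and 9 of 12 Xist fl/fl libraries (exact p = 0.0986, adjusted p = 1.0). Its window was 0%, 0%, 0% and 100% covered in the mb1-cre WT libraries at 0 h and 43.3%, 0%, 0% and 29.2% at 24 h. In Xist fl/fl cells the values were 0%, 82.9%, 0%, 100% and 100%, and 66.3%, 100%, 37.1% and 100%. At 24 h in the TAT-Cre system they were 52.0%, 0% and 0% in WT and 51.2%, 55.8% and 0% in Xist fl/fl cells. The genotypes overlap in the TAT-Cre system and at 0 h, while at 24 h in the mb1-cre system one WT library lay above the lowest Xist fl/fl library. Wnt4, a ligand of kidney and ovary development, had one in 9 of 12 against 5 of 11 (exact p = 0.125, adjusted p = 1.0). For H2AK119Ub, Bmp7 was marked in 6 of 9 WT and 3 of 9 Xist fl/fl libraries (exact p = 0.2), and Fgf5 in 3 of 9 and 0 of 9 (exact p = 0.1). Bmp8b and Wnt7b, each in 6 of 9 and 7 of 9, leaned the other way (exact p = 1.0), and for H3K27ac Wnt5b was in 2 of 9 and 1 of 9 (exact p = 1.0). The share of members with H3K27me3 was 4.65 percentage points higher in Xist fl/fl than in WT (SE 2.58), against 2.57 for all protein-coding genes. The differences were −2.49 (SE 5.98) against −2.98 for H2AK119Ub and 0 (SE 0.507) against −4.59 for H3K27ac. None of these differences of the members reached 2 SE.

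A fit of signal gave 1 genotype call. The share of a library's peak signal in a gene window was taken in ppm of the list's autosomal sum. A peak's total signal was spread evenly over its bases, so the share follows mean peak density and bases covered. It was compared on the log2(ppm + 1) scale with limma. The genes fitted were those marked in 3 libraries or more, a filter chosen after seeing the data because it keeps always-marked genes. Over the 3 comparisons together no member was called (H3K27me3 0.0177% of genes higher and 0.0177% lower, H2AK119Ub 0.00501% and 0.245%, H3K27ac 0.0526% and 0.537%). H2AK119Ub at Fgf5, a regulator of hair growth, was lower in Xist fl/fl cells of the mb1-cre system at 24 h. The WT libraries held 29.7, 14.0 and 21.5 ppm and the 3 Xist fl/fl libraries 0, a log2 difference of −4.45 ± 0.81 (SE; limma adjusted p = 0.0139, with 0.33% of 19973 genes lower and 0.0% higher). With the filter used for the exact test the adjusted p was 0.0501. Leaving out WT replicate 3, Xist fl/fl replicate 2 or Xist fl/fl replicate 3 ended the call (0.0567, 0.0605 and 0.0533). The lists of the WT libraries held 14806 to 32632 peaks and those of the Xist fl/fl libraries 9334 to 23425, and the part of list length in this difference was not tested. In the TAT-Cre system at 24 h, Fgf5 had no peak in either genotype.

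The time comparison asks how the marks differed after 24 h with CpG. List length moved with time, though not one way in every group: the median mb1-cre H3K27me3 list went from 4948 to 12722 peaks, while TAT-Cre WT lists held 3905 to 19074 at 0 h and 3981 to 5798 at 24 h. Peak presence was therefore tested on lists trimmed to the shortest of each mark by total signal, where presence is a rank within a list. The strata were the 2 genotypes in each of the 2 systems. For H3K27me3, 0 of 12 members tested were called (among 3431 genes 0.466% were called higher and 0.816% lower). Bmp4 came nearest, in 8 of 14 trimmed lists at 24 h and 2 of 15 at 0 h (exact p = 0.0168, adjusted p = 0.279); in deposited lists it had a peak in 14 of 14 and 14 of 15. Wnt7b had 9 of 14 against 5 of 15 (exact p = 0.0913), Fgf17 11 of 14 against 15 of 15 (exact p = 0.2) and Fgf11 7 of 14 against 11 of 15 (exact p = 0.233). In deposited lists the counts were 14 of 14 and 11 of 15 for Wnt7b, 14 of 14 and 15 of 15 for Fgf17 and 13 of 14 and 15 of 15 for Fgf11.

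H3K27me3 fell with time at Wnt10b, a ligand that holds back fat cell formation (gene 22410, chr15:98770712-98778206, minus strand), whose promoter is shown above. Every library had a deposited peak there, but it covered less of the gene at 24 h. In the mb1-cre system the signal share was 199, 145, 205 and 178 ppm in the WT libraries at 0 h and 58.9, 60.7, 102 and 57.2 ppm at 24 h. In Xist fl/fl cells it was 171, 221, 185, 211 and 137 ppm at 0 h and 67.9, 43.5, 51.7 and 51.0 ppm at 24 h. In this system the highest 24 h library lay below the lowest 0 h library in both genotypes. In the TAT-Cre system it was 85.0, 172 and 90.1 ppm at 0 h and 58.9, 33.8 and 85.8 ppm at 24 h in WT cells, and 171, 145 and 87.5 against 82.2, 81.6 and 79.7 ppm in Xist fl/fl cells. There the highest WT library at 24 h lay just above the lowest at 0 h, and the Xist fl/fl values did not overlap.

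Over all strata Wnt10b fell by 1.20 ± 0.19 (SE) on the log2 scale (limma adjusted p = 0.000627). The change was −1.58 ± 0.25 in the mb1-cre system (adjusted p = 6.01e-05) and −0.82 ± 0.30 in the TAT-Cre system (adjusted p = 0.267), and the difference between systems was not called. Wnt10b was 1 of 43 members fitted and the 1 that fell, while Fgf3 and Wnt5a rose (2.86% of 11663 genes higher, 0.497% lower, median change of all genes 0.35). Leaving out any 1 of the 29 libraries gave changes from −1.28 to −1.11, with adjusted p at most 0.00211. The covered share of the window went from a median of 81.9% (31.7% to 100%) at 0 h to 33.9% (13.1% to 64.0%) at 24 h. In the last 2500 bases of the gene the median went from 100% (0% to 100%) to 0% (0% to 40.7%), and in the first 2500 bases from 100% (65.6% to 100%) to 70.5% (0% to 100%), so the times overlap at both ends. Where 1 peak reached over both Wnt10b and Wnt1 (26 of 29 libraries), their shares come from the same mean density and differ by bases covered. Wnt1 was covered to a median of 100% at both times. Its signal change was −0.06 ± 0.16 over all strata, but −0.55 ± 0.21 in the mb1-cre system (limma adjusted p = 0.0489) and 0.43 ± 0.25 in the TAT-Cre system (0.447), and that difference between systems was called (−0.98, adjusted p = 0.0338). H2AK119Ub covered a median of 100% of Wnt10b at both times. In mb1-cre H3K27me3 lists the median peak width was 12351 to 20878 bp at 0 h and 8141 to 10504 bp at 24 h. These ranges did not overlap. In TAT-Cre H3K27me3 lists it was 3718 to 13383 bp and 4657 to 8479 bp. The part of peak width in this change was not tested.

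**Figure D4:**
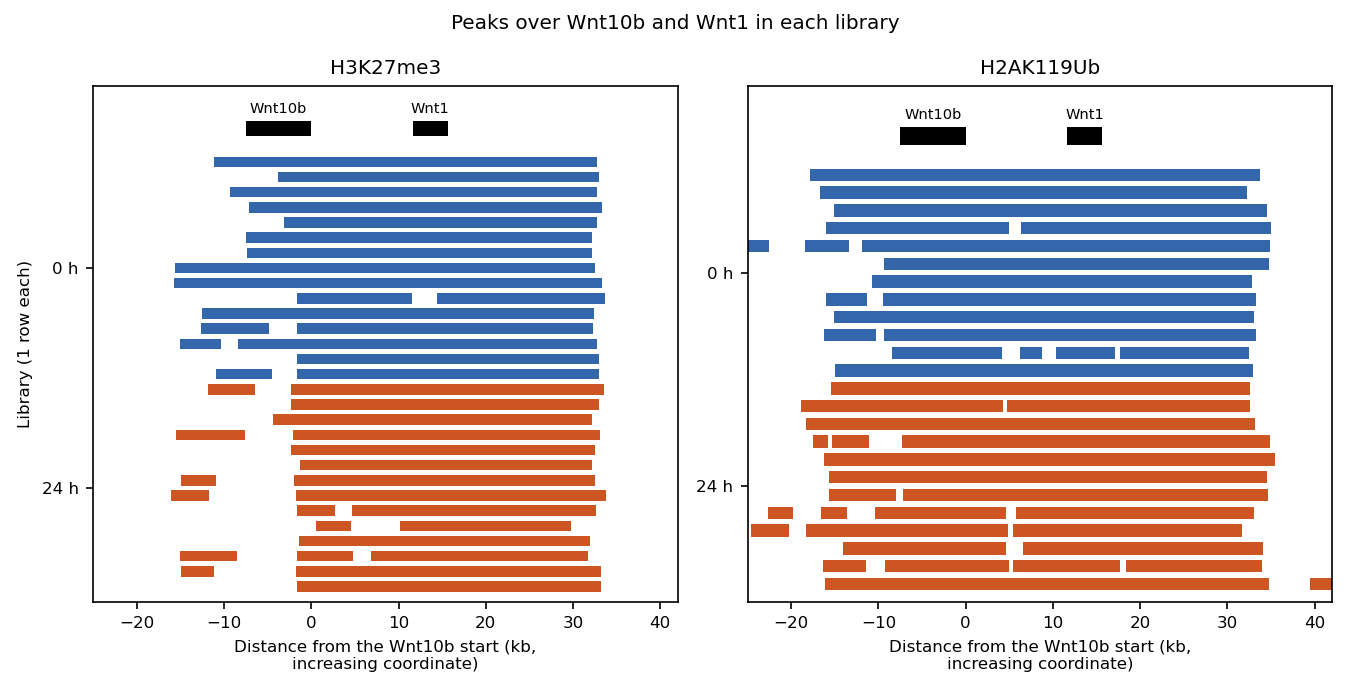
Peaks over Wnt10b and Wnt1 in each library (1 row each, 0 h blue and 24 h orange) by distance from the Wnt10b start in kb, with gene bodies in black; Wnt10b is transcribed to the left. At 24 h H3K27me3 covers a median of 70.5% of the first and 0% of the last 2500 bases of Wnt10b, whereas H2AK119Ub covers a median of 100% of both.

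The H3K27me3 signal share of Fgf3 and Wnt5a was higher at 24 h by limma, while the exact test of peak presence in deposited lists called neither. Fgf3, a ligand of inner ear development (chr7:144838612-144843348), had a peak in 0 of 9 mb1-cre libraries at 0 h and in 8 of 8 at 24 h (24.0 to 59.3 ppm), and in 1 of 6 and 0 of 6 TAT-Cre libraries. The change was 2.26 ± 0.41 over all strata (limma adjusted p = 0.00227), 5.32 ± 0.53 within the mb1-cre system and −0.80 ± 0.62 within the other. The difference between systems was 6.12 (adjusted p = 1.94e-05), so the pooled value averages unlike systems. In deposited lists Fgf3 had a peak in 8 of 14 libraries at 24 h and 1 of 15 at 0 h (exact p = 0.00244, adjusted p = 0.138), and Wnt5a in 13 of 14 and 6 of 15 (exact p = 0.00857, adjusted p = 0.199). By system, Wnt5a had a peak in 3 of 9 and 8 of 8 mb1-cre libraries and in 3 of 6 and 5 of 6 TAT-Cre libraries (limma change 3.5 ± 0.90, adjusted p = 0.029). Leaving out any of 5 TAT-Cre libraries ended that call. They were WT 0 h replicate 1 (adjusted p = 0.0747), WT 24 h replicates 1 and 2 (0.065 and 0.06), Xist fl/fl 0 h replicate 2 (0.056) and Xist fl/fl 24 h replicate 2 (0.0502). With the filter of the exact test, limma called the same 2 of 15 members higher and none lower (3.45% of 8713 genes higher, 0.356% lower). When mb1-cre Xist fl/fl 0 h replicate 5, whose labels give it 2 treatment entries, was placed at 24 h, Fgf3 was no longer called with that filter. A fold change against libraries with no peak depends on the 1 ppm added.

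The systems differed in H3K27me3 over time beyond these genes. In the mb1-cre system 9 of 43 members rose (Wnt4, Wnt5a, Fgf1, Fgf3, Fgf6, Fgf12, Bmp5, Bmp8a and Bmp10) and 6 fell (Wnt1, Wnt6, Wnt10a, Wnt10b, Wnt16 and Fgf9), against 27% of all genes higher and 3.9% lower. In the TAT-Cre system 0 rose and 0 fell (0.0% and 0.0857% of genes). The change itself differed between systems at 13 members, 7 with the larger value in the mb1-cre system and 6 with the smaller (19.9% and 3.64% of genes). Of the 9 that rose, Wnt4, Wnt5a and Bmp8a had peaks in 3 of 9 mb1-cre libraries at 0 h and the other 6 in 0 of 9. Wnt4 and Bmp8a were in 8 of 8 at 24 h, Fgf1 and Fgf6 in 7, Fgf12 in 6, Bmp5 in 5 and Bmp10 in 4. The median change of all genes was 1.09 with mb1-cre and −0.17 with TAT-Cre. List length moved the same way: mb1-cre H3K27me3 lists held 1955 to 7117 peaks at 0 h and 7972 to 15150 at 24 h, with no overlap, while the TAT-Cre median went from 12930 to 6113.5. The part of list length in these differences was not tested. The 6 that fell were marked in every library, and their falls, other than that of Wnt10b, were between −0.54 and −0.70.

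H2AK119Ub spread to more members with time in deposited lists. The members' share with a peak was 25.7 percentage points higher at 24 h (SE 5.53), against 17.8 for protein-coding genes, and 7.31 in trimmed lists. List length moved with time: the median list had 17796 peaks at 0 h and 25206 at 24 h, and 8 of 12 lists at 0 h were as long as the shortest 24 h list (9334 peaks). The median peak width of a list was 2838 to 16023 bp at 0 h and 2948 to 7223 bp at 24 h. Trimming ranks peaks by total signal, and the part of peak width in the trimmed ranks was not tested. In trimmed lists, Wnt3 and Wnt9b rose, 2 of 15 members tested (17.4% of 4306 genes higher), and Wnt16 fell, 1 of 15 (11.5% lower). Wnt3, a ligand of axis formation, and Wnt9b, of kidney tubules, were each in 7 of 12 lists at 24 h and 0 of 12 at 0 h (exact p = 0.008, adjusted p = 0.0309), and 1 peak covered both genes. Deposited lists gave 12 of 12 and 7 of 12 for each. The signal share of Wnt3 was 133, 113 and 113 ppm at 24 h and 0, 17.3 and 0 ppm at 0 h in the WT cells of the mb1-cre system. Over all libraries it was 59.0 to 133 ppm (median 106) at 24 h and 0 to 38.5 ppm (median 18.7) at 0 h, with no overlap. That of Wnt9b was 120 to 214 ppm (median 165) and 0 to 81.9 ppm (median 25.0), again with no overlap. The call was lost with the upper 50% of peaks (adjusted p = 0.352), deposited lists (0.159), no filter (0.0517) or without the short lists (0.0783).

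Wnt16, a ligand of bone and of blood stem cell formation (chr6:22288178-22298522), lay in 0 of 12 trimmed lists at 24 h and in 9 of 12 at 0 h (exact p = 0.0008, adjusted p = 0.00599). It had a deposited peak in all 24 libraries, so what changed was its rank. Its signal share ran from 66.7 to 223 ppm at 0 h (median 115) and from 15.1 to 78.2 ppm at 24 h (median 51.4). The highest 24 h library was mb1-cre Xist fl/fl replicate 3 and the lowest 0 h library mb1-cre WT replicate 2. In TAT-Cre cells, with 75.3 ppm the lowest at 0 h and 61.6 ppm the highest at 24 h, the times did not overlap. The limma change was −1.44 ± 0.33 (adjusted p = 0.00163), against a median of 1.28 for all genes. The share of the window covered was 43.0% to 80.2% (median 54.1%) at 0 h and 14.9% to 73.6% (median 41.2%) at 24 h. Without the short lists the exact test still called it (adjusted p = 0.0419).

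In deposited lists, 7 of 30 members gained H2AK119Ub peaks (11.1% of 18097 genes higher) and 0 lost them (0.16% lower). Without lists of fewer than 3000 peaks, a choice made after seeing the data, 4 of 18 did (3.77% of 14244 genes higher, 0.611% lower). Wnt7a (chr6:91363981-91411353), whose CG-rich promoter is shown above, and Wnt9a, of joint formation, had a peak in 0 of 12 libraries at 0 h and in 12 of 12 at 24 h. Both had an exact p of 1.25e-05 (adjusted p = 0.00279, and 0.0209 without the short lists). No 0 h library had a Wnt7a peak, and the 24 h libraries held 36.3, 39.0 and 18.4 ppm in mb1-cre WT cells. They held 31.6, 36.8 and 54.4 ppm in mb1-cre Xist fl/fl, 27.6, 41.5 and 31.0 ppm in TAT-Cre WT and 26.2, 20.0 and 31.1 ppm in TAT-Cre Xist fl/fl cells. The Wnt7a peaks were small, with 4.68% to 13.6% of the window covered and 18.4 to 54.4 ppm. Wnt7b and Bmp8b went from 2 of 12 to 12 of 12 (adjusted p = 0.00688 for each, 0.0457 without the short lists). Fgf4, Fgf22 and Bmp7 went from 0, 1 and 1 of 12 to 9 of 12 (adjusted p = 0.0129, 0.0258 and 0.041), and without the short lists these were not called (0.0595, 0.109 and 0.144). Fgf22, expressed in brain, thus gained H2AK119Ub in deposited lists with no H3K27me3 peak in any library.

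By limma, H2AK119Ub rose at 22 of 30 members and fell at 0 with the filter of the exact test (43.7% of 18097 genes higher, 2.1% lower). Among 42 members with a peak in at least 3 libraries it rose at 21 and fell at 4 (38.4% and 5.93% of 20695 genes). The median change was 1.78 for the members and 1.28 for all genes. The falls were Wnt16 and, at −0.63 ± 0.21, −0.66 ± 0.22 and −0.80 ± 0.21, Wnt10a, Wnt10b and Fgf9 (adjusted p = 0.0187, 0.0178 and 0.00365). These 4 had H2AK119Ub in every library at both times, and as a list grows the share of signal left to an always-marked gene falls, a part that was not tested. Wnt6, also marked in every library, rose by 0.41 ± 0.16 (adjusted p = 0.0455). Its window was 61.3% covered at 0 h and 91.4% at 24 h in the median library.

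**Figure D5:**
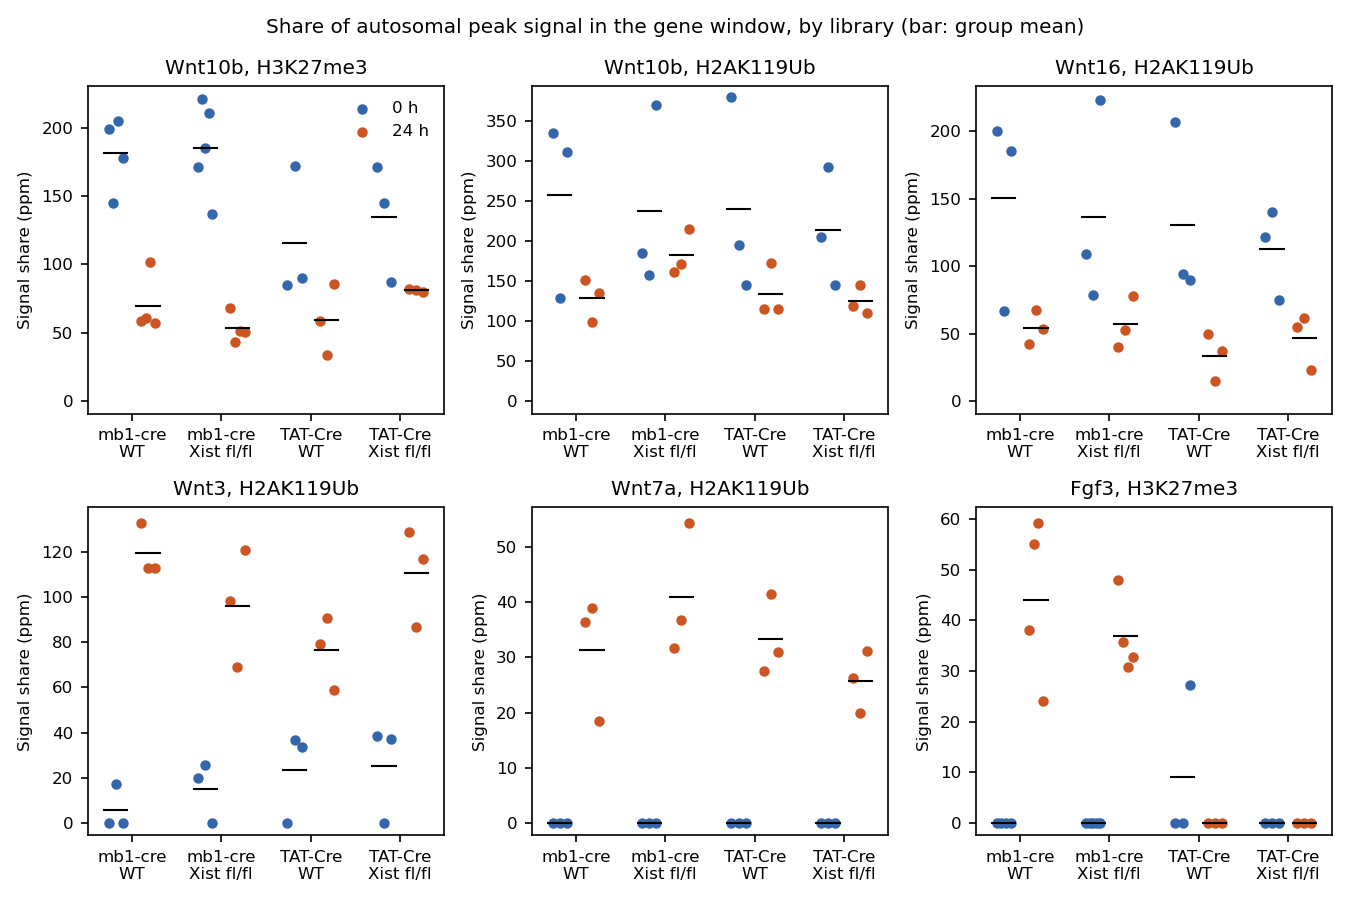
Signal share of 4 Wnt genes and of Fgf3, in ppm of autosomal peak signal (vertical axis, linear), 1 point per library, by system and genotype (horizontal axis), 0 h blue and 24 h orange, with a bar at each group mean. At 24 h Wnt10b is lower for both marks and Wnt16 lower for H2AK119Ub, Wnt3 and Wnt7a are higher for H2AK119Ub, and Fgf3 has H3K27me3 signal at 24 h in the mb1-cre system.

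For H3K27ac, Bmp6 was the 1 member tested in trimmed lists, in 0 of 12 at 24 h and 6 of 12 at 0 h (exact p = 0.02, adjusted p = 0.0592, with 14.8% of 1753 genes higher and 13.6% lower). The signal in its window, from the peak at Txndc5, was 80.5 ppm in the median library at 0 h and 29.5 ppm at 24 h, with a limma change of −0.82 ± 0.58 (adjusted p = 0.225); 1 library at 0 h, TAT-Cre Xist fl/fl replicate 3, had no peak. Fgf18 rose by 1.14 ± 0.43 (adjusted p = 0.0303; 46.2% of 9709 genes higher, 7.95% lower, median of all genes 1.66). That was less than the median change. Fgf18 also had H3K27me3 in 28 of 29 libraries.

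The 2 Polycomb marks were present together at more members after 24 h. Counting a member as marked in a group when more than 50% of the group's libraries had a peak, 13 members carried both marks at 0 h and 34 at 24 h in WT cells of the mb1-cre system. The counts were 22 and 29 in its Xist fl/fl cells, 22 and 29 in WT cells of the TAT-Cre system and 24 and 33 in the Xist fl/fl cells there. Members with H3K27me3 alone went from 17, 13, 17 and 14 to 6, 14, 3 and 4 in the same order. Wnt5a and Fgf20 were among those with H3K27me3 alone in all 4 groups at 24 h. These counts use deposited lists and move with list length. The 2 marks were read in separate libraries and could lie anywhere in the window. Joint counts were not made for all genes. The median library's share of protein-coding genes with a peak went from 20.6% to 26.2% for H3K27me3 and from 35.4% to 52.2% for H2AK119Ub.

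Receptors, inhibitors and downstream genes of the 3 pathways were marked less often than the ligands in some cases and as often or more often in others. The median H3K27me3 library had a peak at 56.2% of 48 Wnt pathway genes, 50.0% of 22 Fgf pathway genes and 70.0% of 30 Bmp pathway genes, and for H2AK119Ub at 56.2%, 77.3% and 75.0%. For the Fgf and Bmp pathways the H2AK119Ub shares stood above the 60.0% and 40.0% of their ligands. None was called by genotype for any mark, or by time for H3K27me3. By genotype, the floor of the exact p for H2AK119Ub and H3K27ac applies here too. For H2AK119Ub over time in trimmed lists, 2 of 12 Wnt pathway genes tested rose and 1 fell (17.4% of all 4306 genes tested rose and 11.5% fell). Tcf7, the β-catenin partner in T cells, went from 2 to 12 of 12 lists (adjusted p = 0.00225), the receptor Fzd2 from 0 to 9 (0.00455), and Znrf3, a ubiquitin ligase that removes Frizzled receptors, from 10 to 2 (0.0211). Of 9 Fgf pathway genes 3 rose: the receptor Fgfr3 from 0 to 11 of 12 (adjusted p = 0.000992), Flrt1 from 0 to 9 (0.00455) and the adaptor Frs3 from 1 to 9 (0.0185). Of 8 Bmp pathway genes 2 rose, the receptor Acvrl1 from 2 to 10 (0.0294) and the antagonist Nbl1 from 0 to 7 (0.0309), and the receptor Acvr2a fell from 11 to 3 (0.0211). Dusp6, the phosphatase that limits ERK signalling, was the 1 pathway gene called for H3K27ac, in 12 of 12 trimmed lists at 0 h and 5 of 12 at 24 h (adjusted p = 0.0222), with 14.8% of all 1753 genes tested called higher and 13.6% lower. In deposited lists Znrf3 and Acvr2a had H2AK119Ub peaks, and Dusp6 H3K27ac peaks, in 12 of 12 libraries at both times, so what fell was their rank. The 7 pathway genes that rose had deposited peaks in 7 to 9 of 12 libraries at 0 h and in 12 of 12 at 24 h.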

How the data were processed

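CUT&RUN for 3 histone marks was analysed in 77 libraries. The submitters' processing notes name Trimmomatic 0.32, Bowtie2 2.3.4.1, Picard and deepTools 3.5.1 as tools and mm10 as the build. Per the labels, 3 µg (H3K27me3, H3K27ac) or 1.5 µg (H2AK119Ub) of antibody and a yeast spike-in were used. The deposited lists hold, for each of 883735 peaks, its total and highest signal; no version, control or scaling of the peak caller is given in the sources used here, and signal was used only as a share of the same list's autosomal sum (ppm).

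A gene had a peak when at least 1 bp of one lay in its window. Presence was tested by a two-sided exact conditional test within strata over genes marked in 3 or more libraries and unmarked in 3 or more, with BH adjustment (Python 3.11.15, scipy 1.17.1); genotype used deposited lists and time used lists trimmed to 1955, 2004 and 1336 peaks. For ppm, the total signal of a peak was spread evenly over its bases, and a gene was given the part its window overlapped. Signal was tested with limma 3.58.1 (R 4.3.3) on log2(ppm + 1). Both were run on simulated data with large planted changes and no shift of list length with time. That run cannot show how the tests behave when list length moves with time. Strand was read from the end of the gene at which the RefSeq promoter lies; 13 members had no promoter there. Of the members, 24 have bodies that overlap another gene, and peaks there cannot be assigned to 1 of them.

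Mb1-cre Xist fl/fl H3K27me3 0 h replicate 5 is titled naive but has a treatment entry of stimulation; its title set its group, and 24 h was tried as an alternative. Genes given by library are the 2 members in each direction with the smallest exact p for each mark and comparison, the 3 of each family with the largest H3K27me3 cover, and those with H3K27ac in at least 50% of libraries; others named with values were chosen after those were seen. The members and lists were chosen with earlier results of these data known. The alternatives were the upper 50% of peaks, a 500 bp overlap, gene bodies alone, no filter, trimmed or deposited lists, a pseudocount of 10 ppm, a replicate block, leaving out each library and, added after seeing the data, leaving out lists of fewer than 3000 peaks and the wider limma filter.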

Additional observations from a re-analysis of the deposited data

Results flagged for a closer look

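In groups of 4 or 5 libraries, 61 sets of H3K27me3 values were looked at for a library far from the others. Of these, 7 had one. The sets were covered shares of the genes given by library and the percent of members with a peak. A rate of 1 in 20 holds for independent normal values, and these are bounded shares with ties. The number expected by chance is therefore not given. In replicate 2 of WT mb1-cre cells at 0 h, whose list held 2711 peaks, Bmp4 was 100% covered (others 74.9% to 77.3%) and Fgf5 0% (others 37.7% to 42.8%). In replicate 4 of that group Fgf21 was 100% covered and 0% in the others. At 0 h, Xist fl/fl mb1-cre replicate 1 had the shortest H3K27me3 list with 1955 peaks; there Bmp4 was at 0% (others 78.0% to 100%) and Fgf15 at 83.6% (others 100%). In replicate 5 of that group, the library with 2 entries for its treatment, Bmp8b was at 62.5%, against 17.3% to 29.2% in the others. At 24 h, in replicate 3 of Xist fl/fl mb1-cre cells, Fgf5 was at 30.8% (others 42.2% to 43.6%).

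The change of H3K27me3 signal share with time differed between the systems at 13 members (limma, adjusted p at most 0.05; 88 differences were looked at over the 3 marks). The difference, mb1-cre minus TAT-Cre on the log2 scale, was 6.12 for Fgf3, 6.38 for Bmp8a, 5.66 for Bmp5, 5.34 for Fgf12, 5.18 for Fgf1, 4.65 for Fgf6 and 1.98 for Bmp10. It was −1.40 for Fgf20, −1.39 for Wnt2b, −1.20 for Wnt11, −1.06 for Fgf9, −0.98 for Wnt1 and −0.87 for Wnt6. Of the 7 higher genes Bmp8a had a peak in 3 of 9 mb1-cre libraries at 0 h and the others in 0 of 9, and the 6 lower genes had H3K27me3 in every library. The mb1-cre H3K27me3 lists held 1955 to 7117 peaks at 0 h and 7972 to 15150 at 24 h, the TAT-Cre lists 2017 to 19074 and 3981 to 10179, and the part of list length was not tested. The systems also differ in when Cre acted, which cannot be told apart from the system.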

How the results depend on the processing

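No member was called by genotype with the exact test under any alternative run, and the H3K27me3 call of Wnt10b over time held with a pseudocount of 10 ppm (−1.10), with the replicate block (−1.23) and with replicate 5 at 24 h (−1.16). Genes called by genotype numbered 0 for each mark with the exact test, also without each library in turn (0 to 0). For H2AK119Ub and H3K27ac this cannot show stability. The exact p has a floor there that 1 gene alone cannot pass after adjustment, and leaving out a library raises it. Genes called by genotype numbered 4 in trimmed lists for H3K27me3, and 1, 35 and 24 by limma for H3K27me3, H2AK119Ub and H3K27ac. With the replicate block these were 0, 22 and 1, with a pseudocount of 10 ppm 2, 88 and 14, and with the wider filter 4 and 56 for H3K27me3 and H3K27ac. Genes called by time numbered 44 for H3K27me3, 1247 for H2AK119Ub and 499 for H3K27ac. For H3K27me3 they were 0 in deposited lists, 21 with replicate 5 at 24 h, 332 by limma, 375 with the replicate block and 28 to 50 without each library in turn; the 28 came without mb1-cre Xist fl/fl 0 h replicate 4. For H2AK119Ub they were 635 with the upper 50% of peaks, 2046 in deposited lists, 8295 by limma and 8625 with the block. For H3K27ac they were 2483, 4569 and 4395 in deposited lists, by limma and with the block. The members' share with a peak, in percentage points over time, was 7.31 for H2AK119Ub in trimmed lists; for H3K27ac it was −0.34 with the upper 50%, −1.02 in trimmed lists, both reversed, and 0.34 over gene bodies. The cause was not tested. Libraries with the same replicate number did not deviate together in the median (correlation −0.02 to 0.02), though single pairs ran from −0.47 to 0.51. The numbers were therefore not taken to pair libraries, and the block ended no call of Wnt10b, Fgf3, Wnt5a or Fgf5. With the exact test's filter and replicate 5 at 24 h, limma no longer called Fgf3. Unknown read depth limits what absence of a peak can show.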
